A study of Mus musculus with 4 samples.

Results

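The heat shock genes described here are 10 mouse genes, Hspa1a, Hspa1b, Hspa8, Hsph1, Hspb1, Hspb8, Dnajb1, Hsp90aa1, Bag3 and Hspe1, taken from 22180 named genes on the arrays. Each gene was read from a probe set annotated to its symbol alone, and of several such probe sets the brightest on average was kept. The samples were cultures of CT26, a mouse colon carcinoma line, each put on 1 Affymetrix array for a total of 4. One culture received the solvent DMSO for 24 h and one 5 µM Senexin B, a small-molecule inhibitor of the Mediator kinases CDK8 and CDK19, for 24 h. Another culture was the CT26-pLKO.1 line, named after a lentiviral hairpin vector, and the last was CT26-shCDK8, named for a hairpin against CDK8. All 4 share the CT26 background. The labels do not say whether the vector and hairpin lines are single clones.

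Heat shock proteins are chaperones that hold, refold or hand on proteins that have lost their shape. Hsp70 proteins do this in cycles of ATP binding that are started by J-domain partners and ended by nucleotide exchange factors. Small heat shock proteins hold unfolded proteins without ATP, and Hsp90 completes the folding of kinases and receptors. The transcription factor HSF1 induces many of these genes through heat shock elements, inverted repeats of the block GAA, and tumour cells often keep the system active without heat. The label calls the set cytosolic. This fits 9 of the members as they are known, whereas the product of Hspe1 is the co-chaperonin Hsp10, which works in mitochondria with Hsp60, the product of Hspd1.

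Promoter windows from RefSeq (GRCm38.p6), running from 250 bases before to 50 after a gene start, were found for 8 of the 10 members. The heat shock element was searched on both strands in a pair of forms: a 3-block form of GAA, TTC and GAA (or TTC, GAA and TTC) with 2 free bases between blocks, and a 2-block form, GAANNTTC or TTCNNGAA, of which each 3-block match holds 2 overlapping copies. The 3-block form stood in the windows of 2 members, Hspe1 and Hsph1, and in those of 0.662% of 27025 genes. The 2-block form stood in the windows of 7 members and of 17.0% of all genes. Dnajb1 had neither form in its windows (chr8:83607925-83608224 and chr8:83608298-83608597), and the bases between these windows were not searched. Matches of 5 members are shown. Those of Hspe1 and Hsph1 were chosen because these, the members with the longer form, are also the pair that was lowest relative to control in the hairpin line. The choice thus used the expression values, and whether the element bears on them was not tested. Capitals mark the 3-block form where there is one and otherwise the 2-block form, and Hspe1 is shown over the 250 bases before its start (chr1:55087898-55088147, plus strand), Hsph1 at chr5:149636280-149636308 (minus), Hspb1 at chr5:135887794-135887837 (plus), Hspb8 at chr5:116422847-116422870 (minus) and Bag3 at chr7:128523617-128523632 (plus).
Hspe1: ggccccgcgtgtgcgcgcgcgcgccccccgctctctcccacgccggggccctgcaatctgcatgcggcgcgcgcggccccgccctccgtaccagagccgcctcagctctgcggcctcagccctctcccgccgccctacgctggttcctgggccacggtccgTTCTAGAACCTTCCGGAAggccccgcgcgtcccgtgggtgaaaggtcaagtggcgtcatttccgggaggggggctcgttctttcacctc
Hsph1: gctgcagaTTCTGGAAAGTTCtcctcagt
Hspb1: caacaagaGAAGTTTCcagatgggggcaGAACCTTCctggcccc
Hspb8: agccaggaGAAGTTTCtaggctcg
Bag3: tgggaccaGAAGTTTC

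The Hspe1 element begins 89 bases before the start and consists of 2 overlapping 3-block matches. The same bases lie, read on the opposite strand, in a promoter window of Hspd1, its neighbour on chromosome 1. In Hsph1 the 3-block match follows the start, by 37 bases for one annotated start and by 16 for the other. A further 2-block match of Hsph1 lies outside the printed stretch, before the start. The Bag3 match ends on the last base of its window, so a further block after it would not have been seen. A match is a run of letters, and factor binding was not measured.

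**Figure D1:**
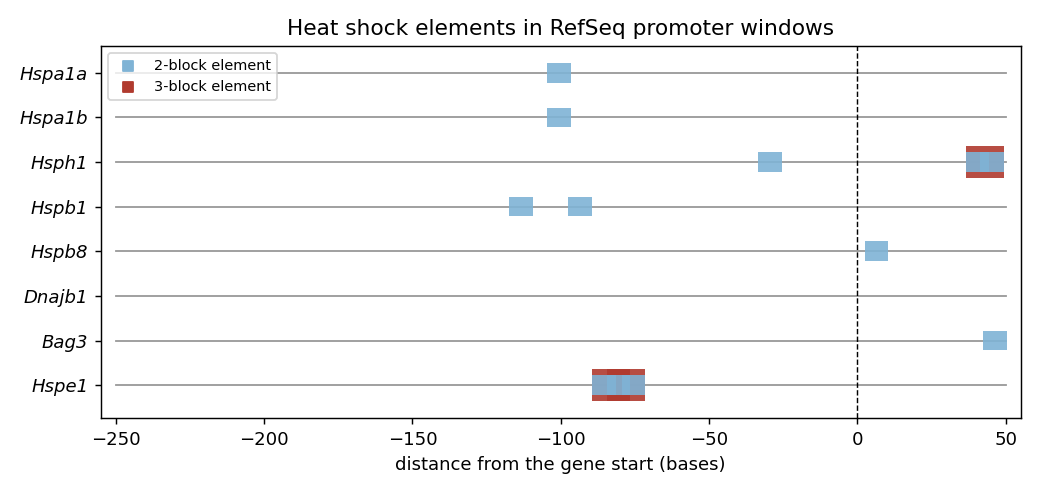
Positions of the heat shock elements in the promoter windows of the 8 members that have one. The horizontal axis is the distance from the gene start in bases (dashed line at the start), pale blocks are 2-block and dark blocks 3-block matches, and 1 of the windows is drawn for Hsph1 and for Dnajb1. The 3-block form is seen in Hsph1 and Hspe1, and no match is seen in Dnajb1.

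Hspa1a and Hspa1b encode the stress-inducible Hsp70 and are near-identical neighbours. Their windows were the same at 296 of 300 bases. The 250 bases before each start are printed with the differing bases in capitals, for Hspa1a (chr17:34972157-34972406, minus strand) and Hspa1b (chr17:34959239-34959488, minus strand). Counted from 1 at the 5′ end of the window, with the Hspa1a base first, the differences are C44T, T47C, T249G and, after the start, C276T. The 2-block match of both genes, from position 147 to 154, holds none of them and is left in lower case.
Hspa1a: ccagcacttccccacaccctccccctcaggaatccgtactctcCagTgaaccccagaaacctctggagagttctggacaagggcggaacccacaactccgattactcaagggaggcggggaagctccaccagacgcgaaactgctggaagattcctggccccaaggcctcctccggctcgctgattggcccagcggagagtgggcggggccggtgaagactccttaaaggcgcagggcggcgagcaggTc
Hspa1b: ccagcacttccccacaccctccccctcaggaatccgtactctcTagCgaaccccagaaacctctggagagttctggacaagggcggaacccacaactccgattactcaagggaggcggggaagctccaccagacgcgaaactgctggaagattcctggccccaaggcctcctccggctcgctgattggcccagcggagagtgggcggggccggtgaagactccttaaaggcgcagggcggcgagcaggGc

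Expressed means that the highest of the 4 log2 values was at least 5.98 (the 40th percentile over genes and arrays), as it was for 14272 genes. Of the members 9 were expressed. Hspa1a was not, with values between 3.83 and 4.06 on the arrays, while Hspa1b lay between 7.11 and 7.77. Because the pair is so alike, how the array's probes divide their RNA between their probe sets is uncertain. Hspb1 passed on 3 arrays, on 2 of them barely, and its Senexin B value was under the limit. Array medians lay between 5.99 and 6.04 and correlations of the arrays over 41345 probe sets (Pearson's r) between 0.982 and 0.990. Cdk8, which the hairpin targets, was at 9.07 in shCDK8 and at 10.58 to 10.79 on the other arrays. Each group had 1 array, so the differences that follow have no replicate check, no error and no test. A gene is called lower or higher here where 2 arrays were at least 0.32 apart on the log2 scale, a size chosen with earlier results of these data known.

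Of the 6 epithelial markers fixed for a check of the label, Krt8, Krt18 and Cdh1 were above the expression limit on every array. Epcam (4.38 to 4.64) and Krt19 (5.68 to 5.94) were under it on every array, and Cldn4 was under it in DMSO and pLKO.1 alone. The leukocyte markers Ptprc and Cd3e were under the limit on all 4 arrays, and Cd68 was above it. Of 3 endothelial markers 2 were above the limit in DMSO, 3 in Senexin B, 2 in pLKO.1 and 1 in shCDK8. Their summed linear level was 195 in DMSO, 206 in Senexin B, 176 in pLKO.1 and 163 in shCDK8, and Cdh5 differed by -0.68 between the controls. All 4 fibroblast markers were above the limit on every array, and their summed linear level was 2673 in DMSO, 6036 in Senexin B, 3000.4 in pLKO.1 and 2174 in shCDK8. The sum hides unlike differences. With Senexin B they were 2.29 for Dcn, 1.24 for Pdgfra, 0.57 for Col3a1 and 0.23 for Col1a1. In shCDK8 minus pLKO.1 they were -0.82 for Dcn, 0.39 for Pdgfra, -1.27 for Col3a1 and -0.16 for Col1a1. The part of these markers in the differences of the heat shock genes was not tested.

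The comparison of Senexin B with DMSO sets the culture given the Mediator kinase inhibitor beside the culture given solvent. All 9 expressed members had a difference below 0 with Senexin B, and so had Hspa1a, which was under the expression limit. Hspb8, Hspb1, Hsph1 and Hspe1 were lower by at least 0.32, and no member was higher by as much. Of all expressed genes 8.99% were lower by this size and 55.1% were below 0. The differences of the members were small, 1.41-fold at most, and none reached 1.5-fold (1.65% of expressed genes were at least that much lower). The median difference of the 10 members was -0.21 on the log2 scale, beside -0.028 for all expressed genes. In RNA from whole cultures, less RNA per cell and fewer cells carrying it cannot be told apart.

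The hairpin comparison asks how the line with reduced Cdk8 RNA differed from the vector line. Hspe1 (1.34-fold) and Hsph1 (1.28-fold) were lower in shCDK8, and the other members differed by less than 0.32. None of the 10 was 1.5-fold lower (1.85% of expressed genes). Of the 9 expressed members 7 were below 0, with a median of -0.12 for all 10 members beside 0.0038 for all expressed genes. The share of expressed genes lower by at least 0.32 was 7.68%, and 49.1% were below 0. Hspe1 and Hsph1 were thus lower by this size in both comparisons, which share no array, as were 1.11% of the expressed genes. After either rescaling of the arrays the Senexin B difference of Hspe1 was short of 0.32, at -0.27 and -0.25, which leaves Hsph1.

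The control arrays also differed in these genes. In pLKO.1 minus DMSO, Hspa1b was 1.37-fold and Dnajb1 1.34-fold lower, and 8 of the 9 expressed members were below 0, with a median of -0.17 for the 10 members. Between the controls 5.05% of all expressed genes were lower by at least 0.32 and 55.6% were below 0, with a median of -0.023. The DMSO array had the highest value of the 4 for 8 of the 9 expressed members, against 26.6% of all expressed genes. For Hspa8 and Hspb1 this rests on the probe set kept, since the 3 other probe sets of Hspa8 alone were highest in pLKO.1 and the second of Hspb1 was lowest in DMSO. The shCDK8 array was lowest for 5 members (28.7% of expressed genes) and the Senexin B array for the other 4 (31.2%). Solvent and vector are different controls, and what sets the DMSO array apart cannot be told from 1 culture. Against the other control array the number of members lower by at least 0.32 was 1 for Senexin B minus pLKO.1 (Hspb8), with 8.74% of expressed genes as background. For shCDK8 minus DMSO it was 4 (Hspa1b, Hsph1, Dnajb1 and Hspe1), with 11.0% as background.

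**Figure D2:**
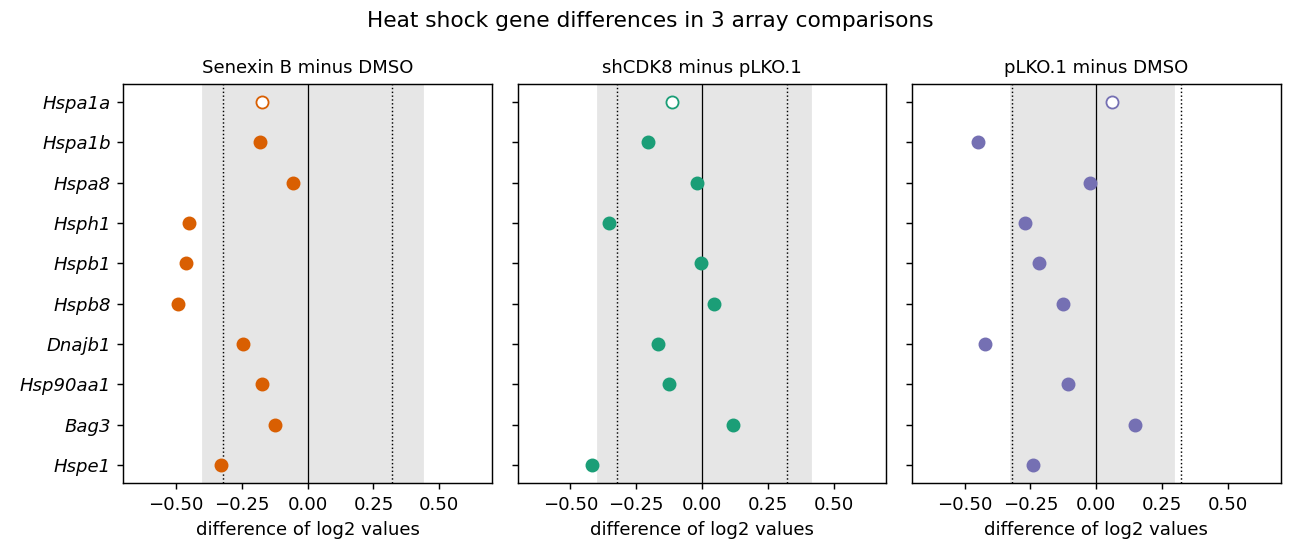
Difference of log2 values for each member in Senexin B minus DMSO, shCDK8 minus pLKO.1 and pLKO.1 minus DMSO, 1 array per group and no error. Grey spans the 5th to 95th percentile of all expressed genes, dotted lines mark the size of 0.32 used for calls, and the open point is Hspa1a, under the expression limit. Hspb8, Hspb1 and Hsph1 lie left of the grey span for Senexin B, Hspe1 for shCDK8, and Hspa1b and Dnajb1 between the controls.

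The Hsp70 genes and their partners came in different patterns. Hspa8, the constitutive Hsp70 known as Hsc70, stood at 13.41 in DMSO, 13.35 in Senexin B, 13.38 in pLKO.1 and 13.36 in shCDK8. Its range over the arrays was 0.056, the narrowest of the members. The 3 other probe sets annotated to Hspa8 alone differed by -0.060 to -0.040 with Senexin B, by -0.11 to -0.024 in shCDK8 and by 0.059 to 0.095 between the controls. One more probe set, annotated to Hspa8 together with the small nucleolar RNA gene Snord14e and so not used, was at 10.79 in DMSO and 10.29 in Senexin B, a difference of -0.50 that cannot be assigned to either gene.

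Hspa1b, the inducible form, was at 7.77 in DMSO and 7.59 in Senexin B, and at 7.32 in pLKO.1 and 7.11 in shCDK8. Both lines that carry a construct lay below both treated cultures. The difference was -0.18 with Senexin B, -0.21 in shCDK8 and -0.45 between the controls, so the gap between the controls exceeded either comparison. Against pLKO.1 the Senexin B array was 0.27 higher. Another probe set, annotated to Hspa1a and Hspa1b together and so not used, was under the expression limit on every array. It was at 5.46 in DMSO, 5.01 in Senexin B, 4.73 in pLKO.1 and 4.82 in shCDK8. Its differences were -0.45 with Senexin B, 0.093 in shCDK8 and -0.73 between the controls, so its sign in shCDK8 was opposite to that of Hspa1b.

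Dnajb1 encodes the J-domain protein Hsp40, which delivers clients to Hsp70 and starts its ATP cycle. It repeated the order seen in Hspa1b, with 9.57 in DMSO, 9.32 in Senexin B, 9.14 in pLKO.1 and 8.97 in shCDK8. Its differences were -0.24 with Senexin B, -0.17 in shCDK8 and -0.42 between the controls. Senexin B minus pLKO.1 was 0.18, so its direction too depended on which control was used.

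Hsph1 encodes Hsp110, an Hsp70 relative that releases nucleotide from Hsp70 and helps to dissolve aggregates. Its values were 12.03 in DMSO, 11.58 in Senexin B, 11.76 in pLKO.1 and 11.41 in shCDK8. Both treated or silenced cultures lay below both controls. The differences were -0.45 with Senexin B, at percentile 3.59 of all expressed genes, and -0.35 in shCDK8, at percentile 6.36. The controls differed by -0.27, and Senexin B minus pLKO.1 was -0.18, short of 0.32.

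Bag3, whose product also releases nucleotide from Hsp70 and steers clients with Hspb8 into autophagy, had another order of arrays. It was at 10.07 in DMSO, 9.94 in Senexin B, 10.21 in pLKO.1 and 10.33 in shCDK8. It was the single expressed member whose highest value was not on the DMSO array. The differences were -0.12 with Senexin B and 0.12 in shCDK8, and both were within the 0.15 between the controls.

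The small heat shock genes Hspb1 and Hspb8 had the largest differences of the members with Senexin B. Hspb8, encoding Hsp22, the partner of Bag3, was at 10.04 in DMSO, 9.55 in Senexin B, 9.92 in pLKO.1 and 9.96 in shCDK8. The Senexin B array alone stood low, and the other 3 lay within 0.12. Its difference of -0.49 was at percentile 2.69 of all expressed genes, and against pLKO.1 it was -0.37, at percentile 6.61. Its shCDK8 difference was 0.045.

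Hspb1, encoding Hsp25 in the mouse, was at 6.22 in DMSO, 5.75 in Senexin B, 6.001 in pLKO.1 and 5.999 in shCDK8. These values lie around the expression limit, where RMA compresses differences. The Senexin B difference of -0.46 was not shared by its second probe set, which was under the limit on every array and 0.34 higher with Senexin B, and the mean of both was -0.063.

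Hsp90aa1, the inducible cytosolic Hsp90, was at 9.59 in DMSO, 9.41 in Senexin B, 9.48 in pLKO.1 and 9.36 in shCDK8. The differences were -0.17 and -0.13, Senexin B first, and -0.11 between the controls. None reached 0.32.

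Hspe1 was at 8.85 in DMSO, 8.52 in Senexin B, 8.61 in pLKO.1 and 8.20 in shCDK8. The shCDK8 array was lowest by a wide margin and the Senexin B array lay just under pLKO.1. The shCDK8 difference of -0.42 was at percentile 4.34, and the value against DMSO was -0.66. The Senexin B difference of -0.33 was just past 0.32 and did not reach it after a repeated quantile normalization (-0.27) or removal of the lowess trend (-0.25). Hspd1, which shares the printed element, was at 12.57, 12.32, 12.46 and 12.32 in the same order of arrays. Its differences of -0.25 with Senexin B and -0.14 in shCDK8 had the same signs as those of Hspe1 and were smaller than 0.32.

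**Figure D3:**
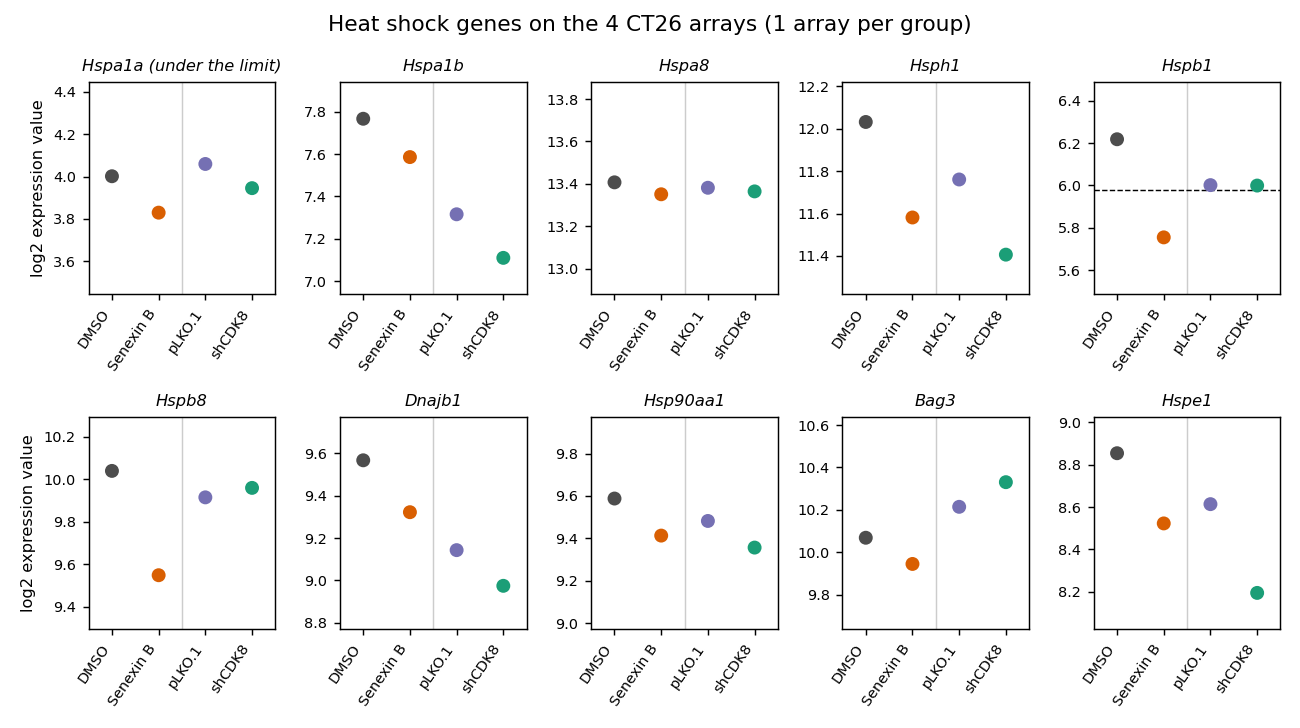
Log2 expression value of each member on the 4 arrays, 1 point per array. Every panel spans 1 log2 unit on its vertical axis, and the dashed line in the Hspb1 panel is the expression limit. The DMSO point is the highest in 8 of the 9 expressed members, Hspa8 is nearly level, and Hspb8 is low with Senexin B alone.

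Other chaperone genes were read from 11 lists of 99 genes, of which 90 were measured and 87 expressed. With Senexin B 6 of the 87 were lower and 3 higher by at least 0.32, beside 8.99% lower and 9.21% higher among all expressed genes. Of the 87, 65 were below 0 (55.1% of expressed genes), and their median was -0.10. In shCDK8 6 were lower and 5 higher, beside 7.68% lower and 8.81% higher among expressed genes. There 47 were below 0 (49.1% of expressed genes), and the median was -0.016. Between the controls 68 were below 0 (55.6% of expressed genes), with a median of -0.077.

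Of the heat shock factors, none of the 3 expressed genes on that list was 0.32 apart with Senexin B or in shCDK8. Hsf2 was at 8.42 in DMSO, 8.23 in Senexin B, 8.32 in pLKO.1 and 8.29 in shCDK8, and Hsbp1, whose product binds HSF1, had a range of 0.070 over the arrays. Hsf4 was at 7.96 in DMSO, 7.93 in Senexin B, 8.30 in pLKO.1 and 8.42 in shCDK8, so both construct lines were above the DMSO and Senexin B arrays. The controls differed by 0.34, and shCDK8 minus DMSO was 0.45. Hsf1 and Hsp90ab1, the constitutive Hsp90, were not analysed here. Of the 13 expressed genes of the Hsp90 list none was 0.32 apart with Senexin B. Among them 10 were below 0, beside 55.1% of all expressed genes, with a median of -0.18. Sugt1, an Hsp90 co-chaperone gene needed for kinetochore assembly, was 0.39 higher in shCDK8.

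With Senexin B the expressed genes on the list of other small heat shock genes stood opposite to Hspb8. They also stood opposite to the probe set kept for Hspb1, but not to its second, which was higher. All 5 expressed ones had a difference above 0, and 3 were higher by at least 0.32, with a median of 0.46. Of all expressed genes 55.1% were below 0 and 9.21% higher by this size. Hspb3, under the limit on every array, was at -0.080. Cryab, the alpha-B crystallin gene, was at 6.46 in DMSO, 7.37 in Senexin B, 6.16 in pLKO.1 and 6.42 in shCDK8. The Senexin B array was the high one, by 0.91 over DMSO and 1.21 over pLKO.1. Cryaa was 0.56 higher and the muscle gene Hspb7 0.46 higher. Their DMSO values of 6.01 and 6.45, like the 6.46 of Cryab, were close to the expression limit. The list median was 0.18 when the probe sets of a gene were averaged. In shCDK8 the list median was 0.16 and no gene of the list was 0.32 apart.

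Among the other Hsp70 proteins Hspa1l, a testis Hsp70 gene that lies beside Hspa1a and resembles it, was at 6.82 in DMSO, 6.25 in Senexin B, 6.88 in pLKO.1 and 6.05 in shCDK8. The controls differed by 0.058, and the differences of -0.57 with Senexin B and -0.83 in shCDK8 were larger than those of any member. Its values are close to the limit, and its probes could share RNA with the near-identical genes. Hspa4l, an Hsp110 relative of Hsph1, was at -0.69 in shCDK8 and at 0.077 with Senexin B. Hspa2 was 0.35 higher in shCDK8.

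J-domain genes separated in shCDK8, where Dnaja2 (-0.62), Dnajc21 (-0.51) and Dnajb2 (-0.45) were lower and Dnajb5 (0.34) was higher, around a list median of -0.0054. With Senexin B, Dnajc2, a ribosome-bound J-domain protein gene, was the one past 0.32, at -0.34. Pfdn1, a subunit of prefoldin, which passes actin and tubulin to the chaperonin TRiC, was lower in shCDK8 (-0.64). The 8 TRiC genes were within 0.32 of control, with Senexin B and in shCDK8. The Hsp70 exchange factor gene Bag1 was 0.33 higher in shCDK8.

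Outside the cytosol, the mitochondrial unfoldase gene Clpx was lower with Senexin B (-0.42), and the mitochondrial list had a median of -0.097. In the endoplasmic reticulum Dnajc3, which restrains the kinase PERK, was lower with Senexin B (-0.35) and higher in shCDK8 (0.70), and Hyou1 was lower with Senexin B (-0.33). Mrpl18, on the list of other HSF1 targets, was at -0.37 with Senexin B and at -0.30 between the controls, and that list had medians of -0.059 and -0.0023, Senexin B first.

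**Figure D4:**
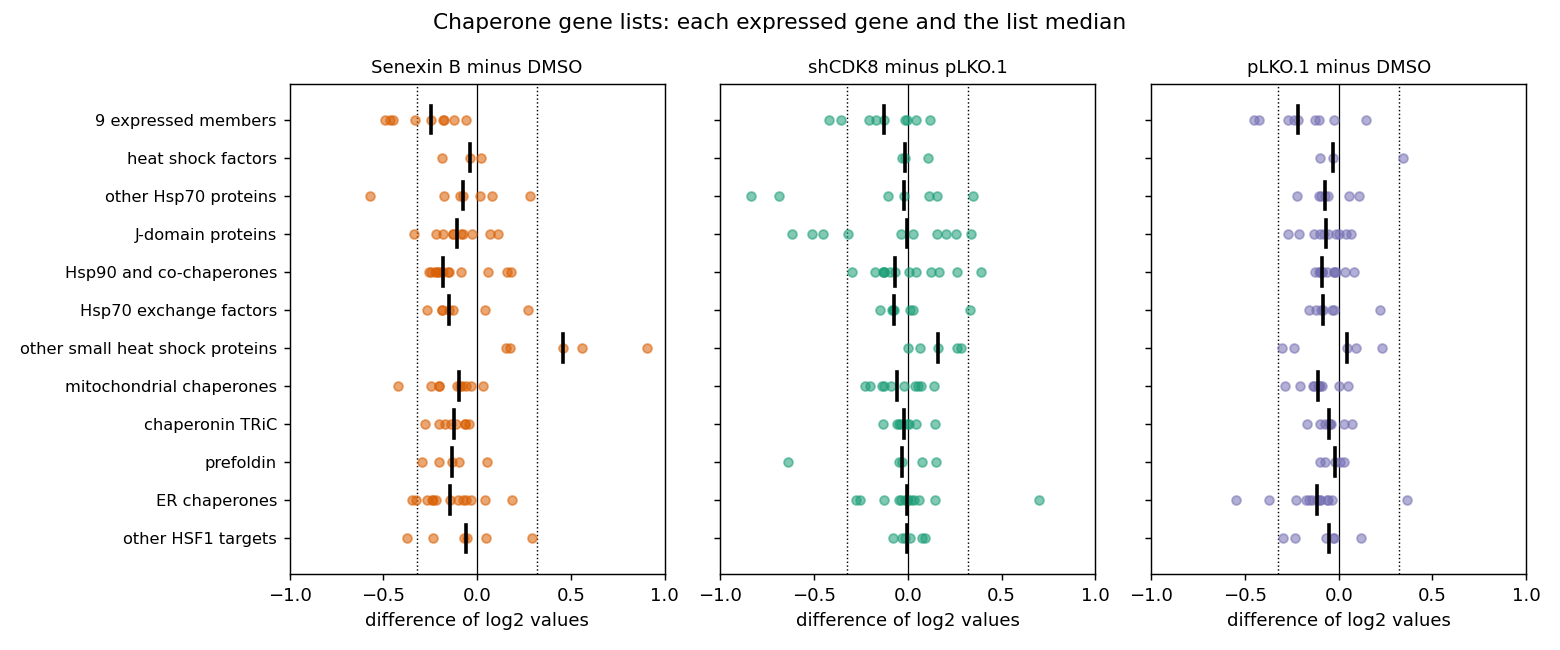
Difference of log2 values for each expressed gene of the chaperone lists (points) and the median of each list (black bar) in Senexin B minus DMSO, shCDK8 minus pLKO.1 and pLKO.1 minus DMSO, with dotted lines at 0.32. The other small heat shock genes lie to the right with Senexin B, and single Hsp70, J-domain and prefoldin genes lie far left in shCDK8.

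The mean profile of the 10 members, centred on its own mean, was 0.18 in DMSO, -0.088 in Senexin B, 0.016 in pLKO.1 and -0.11 in shCDK8. The 5 expressed genes outside the lists with the smallest root-mean-square distance from it over the 4 arrays were Rtel1 (0.0046), LOC100040974 (0.011), H2ax (0.011), Nudt12 (0.014) and Zfp647 (0.014). Within a distance of 0.028 there were 60 such genes.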

How the data were processed

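Biotin-labelled total RNA of 4 CT26 cultures was put on 1 array each. The deposited table holds log2 values made by the authors. The tools listed in the submitters' processing notes are RMA and Affymetrix Expression Console. The sources used here give no version, setting or array build. By design RMA makes the distributions of arrays alike and shrinks differences of dim probe sets.

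Only the 23521 of 41345 probe sets with 1 symbol in the platform annotation were used. Another 1814 had several symbols and 16010 had none. The brightest probe set of each gene was kept. Differences of log2 values were taken between pairs of arrays, with Python 3.11.15 and statsmodels 0.14.6 for lowess. There was 1 array per group, hence no test, and the number of arrays limits precision. A difference of at least 0.32 on the log2 scale was used to count genes. The computation was tested on simulated data. Chaperone lists were written from textbook roles. Members and lists were chosen with earlier results of these data known. Companion genes were named where expressed and at least 0.32 apart in either comparison, at most 4 per list and comparison, plus Hsf2, Hspd1 and the 5 genes with the most similar profile. Hsbp1, Hsf4, Cd68, Cdh5, Stip1, Ahsa1 and the single fibroblast markers were named after their values were seen. RefSeq promoter windows matched 8 members and 81 of 99 companion genes. The alternatives were a repeated quantile normalization, lowess removal (span 0.3), averaged probe sets, the other control array, other thresholds and filters, and leaving out or merging members. The medians over expressed members alone were added after seeing the data.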

Additional observations from a re-analysis of the deposited data

How the results depend on the processing

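No paired analysis was possible because each group has 1 array and no test was made. Over 42 main results (the medians and counts of the members and the medians of the chaperone lists) 292 alternatives were computed. Of these 272 stayed within 0.1 on the log2 scale or a factor of 1.5 in a count, and 20 moved by more. Some alternatives could not move a result, such as a stricter threshold on a count of 0. A change of sign within 0.1 counted as staying. The median of other HSF1 targets with Senexin B, for example, went from -0.059 to 0.035 against the other control array. For the members in Senexin B minus DMSO, the number lower by at least 0.32 went from 4 to 1 against the other control array and to 0 at 1.5-fold and at 2-fold. In shCDK8 minus pLKO.1 the number went from 2 to 4 against the other control array, to 1 without Hspe1, and to 0 at 1.5-fold and at 2-fold, and the median went from -0.12 to -0.22 against the other control array. Between the controls the number went from 2 to 1 with Hspa1a and Hspa1b as 1 gene, and to 0 at 1.5-fold and at 2-fold. The members' median stayed below 0 in all 3 comparisons under every alternative that was run. Against the other control array, the list medians moved to -0.046 for the Hsp70 exchange factors and -0.019 for the ER chaperones (Senexin B), and to -0.16 for the mitochondrial chaperones and -0.11 for other HSF1 targets (shCDK8). For the other small heat shock genes the median was 0.18 with probe sets averaged and 0.32 with no filter in Senexin B minus DMSO, and -0.082 with probe sets averaged and -0.11 with the filter at the 60th percentile in pLKO.1 minus DMSO. The heat shock factors had a median of 0.15 with no filter in pLKO.1 minus DMSO. For single members 18 of 110 alternatives moved, among them Hspb1 with its probe sets averaged. With the other control array, 16 differences of single members moved and 4 stayed.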

Other observations

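The 3-block heat shock element was also read over all expressed genes. Of those with a RefSeq promoter window 63 held it and 11088 did not. In Senexin B minus DMSO 8 of the 63 were lower by at least 0.32 (12.7%, beside 8.87% of the genes without it), with medians of -0.090 and -0.034. In shCDK8 minus pLKO.1 the shares were 7.94% and 6.98%, with medians of -0.037 and 0.0083, and between the controls 7.94% and 4.92%, with medians of -0.028 and -0.027. Hspe1, Hsph1 and, among the companion genes, Hspd1, Chordc1 and Dnajb6 were among the 63. Hspe1 and Hsph1 are themselves counted in the 8 lower with Senexin B and in the 5 lower in shCDK8. Shares without these members were not computed, so the shares above are no separate evidence about the element. Chordc1, whose product is an Hsp90 co-chaperone, was at 10.38 in DMSO, 10.14 in Senexin B, 10.26 in pLKO.1 and 10.08 in shCDK8. This order of arrays was also that of Hsph1 and Hspe1, and of Hsp90aa1, for which no window was found. Companion genes that are not among the 63, such as Stip1 and Ahsa1, had it too. Hspd1 and Dnajb6, which are among the 63, were lowest in Senexin B and did not have it. The share of all expressed genes with this order was not computed, so it is not particular to genes with the element. Dnajb6, a J-domain gene with the element, was at -0.086 with Senexin B and at 0.16 in shCDK8.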
